A study of Danio rerio with 24 samples.

Results

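The question was whether the difference between young (yng) mutant and wild-type (WT) zebrafish embryos changed between 36 and 52 hours post fertilization (hpf). The data were the 12 whole-embryo arrays of a set of 24, and the remaining 12 arrays carried dissected retinas of the same genotypes and ages. The 4 groups, with 3 arrays each, were yng embryos at 52 hpf, WT embryos at 52 hpf, yng embryos at 36 hpf and WT embryos at 36 hpf. The labels gave strain AB for all of these arrays but WT 36 hpf replicate 1, which had no strain label. Each array was hybridized with RNA of a pool of 10 embryos, and the mutants were staged by way of their wild-type siblings. The measure was the interaction term, the yng minus WT difference at 52 hpf less the same difference at 36 hpf. A negative value means that yng stood lower against WT at the later age than at the earlier one, or equally that the level rose less, or fell more, with time in yng than in WT. The term was tested for each of 15502 probe sets that were not controls.

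The gene mutated in young is smarca4a (brg1). Its product is the ATPase subunit of SWI/SNF, a complex that slides and evicts nucleosomes and so opens or closes regulatory DNA. In the zebrafish eye the young mutant is known for retinal cells that are born but do not complete differentiation. Between the ages compared, retinal neurons of the wild type begin to take on their final form, photoreceptor genes come on, and the liver and exocrine pancreas begin to grow.

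Values are quantile-normalized intensities, and differences are on the scale of log2(intensity + 16), which understates changes of dim probe sets. They are given ± SE with 3 arrays per group, and each adjusted p is from limma with Benjamini-Hochberg adjustment over the 15502 probe sets and a threshold of 0.05. Arrays have no sequencing depth, so that their number sets the precision. Before normalization, medians of the embryo arrays were 223 to 241 and 36 to 52 probe sets per array were at 0. Arrays of 1 group correlated there with r of at least 0.9845. In the intensities as deposited, genes of muscle, skin and heart marked the embryo arrays. Medians there were 7009.6 in embryos against 39.4 in retinas for mylpfa of muscle. They were 10964.7 against 0 for krt4 of skin and 1441.5 against 0 for myl7 of heart. For hbae3 of blood they were 12501.2 against 2746.3, so that gene was also read in retinas. Arrays of the same replicate number were hybridized on the same day, apart from WT 52 hpf replicate 3, which was alone on day 4. A model with the day as a block therefore gives that array no weight. Each group was washed on its own pair of fluidics station and module, and in the interaction this pair and the group cannot be told apart. The log2 ratio of the 3' over the 5' control probe sets of gapdh, which follows RNA quality, averaged 3.147 in yng and 2.881 in WT embryos at 52 hpf, and 3.22 in yng and 3.132 in WT embryos at 36 hpf. Within each replicate number the ratio was higher in yng, by 0.40, 0.17 and 0.22 at 52 hpf and by 0.19, 0.06 and 0.01 at 36 hpf. The gap was thus wider at 52 hpf in all 3 numbers, so the ratio moved in 1 direction with the interaction, and its part in the results below was not tested.

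The mutated gene was low in yng embryos at both ages, and its deficit had no detectable change with time. One probe set of smarca4a read 693, 715 and 663 in yng embryos, against 2976, 2869 and 2973 in WT embryos at 52 hpf. At 36 hpf it read 677, 748 and 728 in yng and 3118, 3095 and 3057 in WT embryos. Every yng array was far below every WT array at both ages. The interaction was 0.02 ± 0.11 (adjusted p = 1), and 0.01 ± 0.26 (adjusted p = 1) for the other probe set of smarca4a.

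The interaction was called for 30 of the 15502 probe sets (0.194%), of which 24 were lower (0.155%) and 6 were higher (0.0387%) in yng at 52 hpf relative to 36 hpf. Of the 30, 26 had a difference of at least 2-fold. The same replicate numbers paired the arrays, and with the number as a block 66 probe sets were called (0.426%), 36 lower and 30 higher. All 30 were among the 66. With the 4 embryo groups alone in the fit 23 were called, of which 18 were among the 30. The calls of crabp1a, rlbp1a, crx, gbx2 and mybl1, described below, did not pass in that fit, with adjusted p from 0.0674 to 0.0955. At an unadjusted p under 0.05 there were 704 probe sets (4.54%), 328 lower (2.12%) and 376 higher (2.43%). This count is from the fit without the replicate block, whose spread includes the differences between replicate numbers. Set beside the share of 0.05 which such a threshold lets through when nothing differs, it cannot tell how many probe sets changed. The comparisons that make up the interaction had more calls. The genotypes differed for 915 probe sets (5.9%) at 52 hpf, 430 higher (2.77%) and 485 lower (3.13%) in yng. At 36 hpf they differed for 922 (5.95%), 431 higher (2.78%) and 491 lower (3.17%) in yng. The change with time was called for 1369 probe sets (8.83%) in yng embryos, 782 higher (5.04%) and 587 lower (3.79%), or 845 higher and 396 lower on the intensities as deposited. In WT embryos it was called for 2221 (14.3%), 1138 higher (7.34%) and 1083 lower (6.99%). With the replicate block these counts were 2116 for the genotypes at 52 hpf, 2247 for the genotypes at 36 hpf, 2775 for time in yng and 3893 for time in WT. With 1 array left out they went as low as 603 for the genotypes at 52 hpf (without yng 52 hpf replicate 3), 590 for those at 36 hpf (without WT 36 hpf replicate 2) and 787 for time in yng (without yng 36 hpf replicate 3). These 4 comparisons share arrays with each other and with the interaction.

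Most of the 24 lower calls were probe sets whose level increased with age in WT embryos and did so less in yng. In 21 of the 24 the WT embryos rose between 36 and 52 hpf. Of these 21, yng embryos rose in 10, fell in 2 and did not pass in 9, and the median yng change was 25.1% of the WT change. In the other 3 probe sets WT did not pass and yng fell. At 52 hpf 20 of the 24 were lower in yng, 1 was higher and 3 did not pass. At 36 hpf 17 did not pass, 5 were higher and 2 were lower in yng. The 3 yng and 3 WT arrays did not overlap in 21 of the 24 at 52 hpf and in 10 at 36 hpf, beside 21.9% and 23.2% of all probe sets. Since the 24 were called on these same arrays, this describes them and is no test. In whole embryos, fewer cells of a type and less RNA per cell cannot be told apart. Of the 6 higher calls, 5 rose with age in yng, while in WT 2 fell and 4 did not pass.

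**Figure D1:**
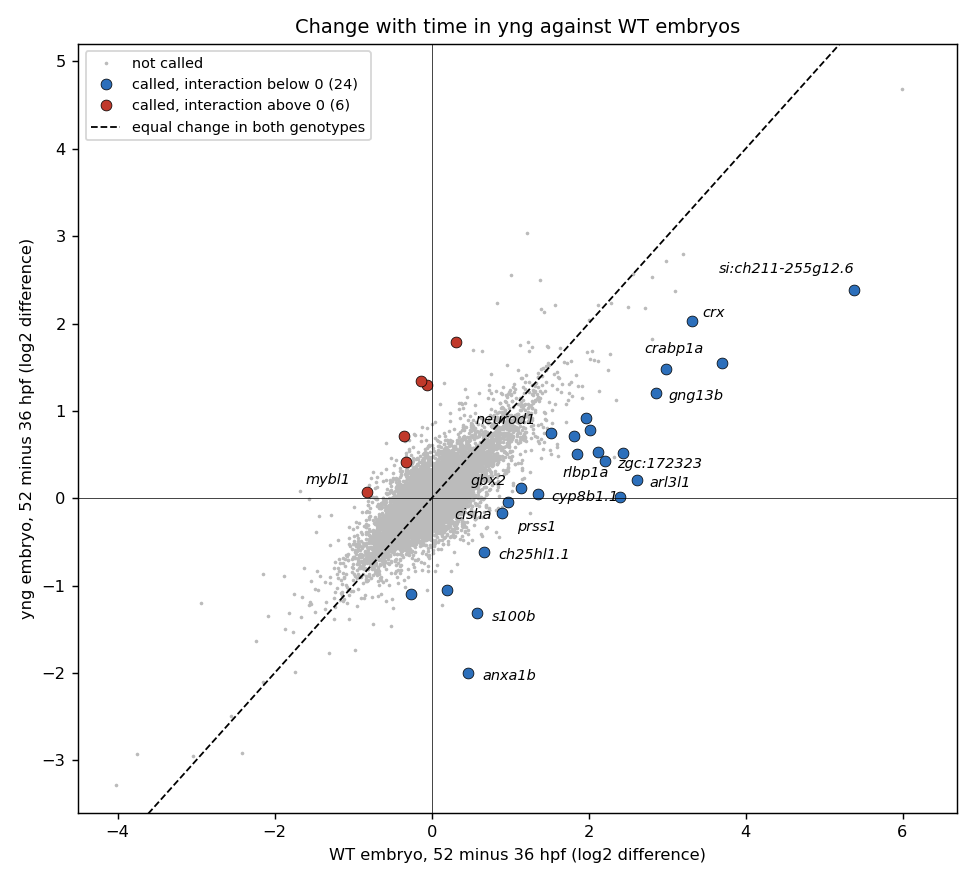
Each point is a probe set, with its log2 change from 36 to 52 hpf in WT embryos on the x axis and in yng embryos on the y axis (3 arrays per group), and the dashed line marks equal change. The 24 lower calls lie below the line, 21 of them at a WT change that passed upward, and the 6 higher calls lie above it.

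Genes of the eye and of neurons were among the named calls. The gene rlbp1a encodes a carrier of visual-cycle retinoids. At 52 hpf rlbp1a read 278, 234 and 225 in yng embryos, against 736, 672 and 587 in WT embryos. At 36 hpf rlbp1a read 192, 189 and 128 in yng and 212, 154 and 154 in WT. All yng arrays were below all WT arrays at the later age, and the genotypes overlapped at the earlier one. Its interaction was -1.35 ± 0.21 (adjusted p = 0.00402), from a time change of 0.51 ± 0.15 (adjusted p = 0.0326) in yng and 1.86 ± 0.15 (adjusted p = 3.20e-08) in WT.

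A G protein gamma subunit gene, gng13b, stands on the neuronal list. It read 299, 241 and 202 in yng embryos at 52 hpf, against 636, 684 and 819.6 in WT embryos. At 36 hpf gng13b read 100.1, 88.3 and 104 in yng and 83.7, 74.8 and 95.5 in WT, where the arrays overlapped. The level of gng13b rose in both genotypes, by 1.2 ± 0.21 in yng and 2.85 ± 0.21 in WT, and the interaction was -1.65 ± 0.30 (adjusted p = 0.0165). Its adjusted p was 0.0598 with the hybridization day as a block.

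The small GTPase gene arl3l1 is a relative of ARL3, which in mammals delivers lipid-anchored proteins to cilia and photoreceptor outer segments. It was close to the bottom of the scale in every group but one. At 52 hpf arl3l1 read 4.11, 0 and 3.90 in yng embryos, against 89.3, 120.3 and 72.9 in WT embryos. It was listed at 0 in all 3 yng arrays at 36 hpf, and WT arrays read 2.07, 3.23 and 0 at that age. The interaction of arl3l1 was -2.40 ± 0.29 (adjusted p = 0.000446), and the change with time was 0.21 ± 0.21 (adjusted p = 0.654) in yng and 2.61 ± 0.21 in WT.

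A pair of transcription factor genes of photoreceptor development stood higher in yng at the earlier age and close to WT at the later one. The homeobox gene crx, which drives photoreceptor genes, read 2698, 2142 and 1855 in yng embryos at 52 hpf, against 1925, 1709 and 1676 in WT embryos. At 36 hpf crx read 588, 606 and 410.2 in yng and 174, 159.7 and 157 in WT. The yng level was thus ahead at 36 hpf by 1.60 ± 0.16 (adjusted p = 1.84e-06), while at 52 hpf the genotype difference was 0.32 ± 0.16 (adjusted p = 0.351) and the ranges overlapped. The interaction of crx was -1.28 ± 0.23 (adjusted p = 0.0164). The basic helix-loop-helix gene neurod1, which acts in photoreceptor precursors and in other young neurons, read 1897, 1763 and 1999 in yng embryos at 52 hpf, against 1872, 2023 and 1957 in WT embryos. At 36 hpf neurod1 read 1116, 1118 and 1120.1 in yng and 665, 627 and 708 in WT, a genotype difference of 0.73 ± 0.10 (adjusted p = 8.04e-05). The groups overlapped at 52 hpf only, and the interaction was -0.78 ± 0.14 (adjusted p = 0.0164). Both genes rose with age in both genotypes, crx by 2.03 ± 0.16 in yng and 3.31 ± 0.16 in WT, and neurod1 by 0.74 ± 0.10 in yng and 1.53 ± 0.10 in WT.

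Also among the calls were gbx2 and crabp1a. The homeobox gene gbx2 sets the boundary of midbrain and hindbrain. Its arrays read 295, 389 and 357 in yng embryos at 52 hpf, against 479, 621 and 558 in WT embryos. At 36 hpf the readings of gbx2 were 303, 295 and 356 in yng and 214, 265 and 245 in WT. The yng arrays thus lay below WT at 52 hpf and above WT at 36 hpf, without overlap. The genotype difference of gbx2 passed at 52 hpf (-0.65, adjusted p = 0.00648) and was 0.38 ± 0.14 (adjusted p = 0.138) at 36 hpf. The interaction was -1.03 ± 0.20 (adjusted p = 0.0296), and its adjusted p was 0.0535 with the day as a block. The gene crabp1a encodes a binding protein of retinoic acid in the cytoplasm. At 52 hpf crabp1a read 95.3, 154 and 113 in yng embryos, against 633, 901 and 937 in WT embryos. At 36 hpf crabp1a read 25.7, 35.8 and 36.8 in yng and 66.4, 90.2 and 114 in WT. It was lower in every yng array at both ages. The genotype difference was -2.62 ± 0.22 at 52 hpf and -1.10 ± 0.22 at 36 hpf. The interaction of crabp1a was -1.51 ± 0.31 (adjusted p = 0.0404), and its adjusted p was 0.000345 with the replicate block.

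The annexin gene anxa1b and the calcium-binding protein gene s100b fell with age in yng. Annexins bind membrane phospholipids in the presence of calcium, and anxa1b stands on the skin list. At 52 hpf anxa1b read 204, 322 and 452 in yng embryos, against 2701, 2801 and 3683 in WT embryos. At 36 hpf anxa1b read 1131, 1179 and 1592 in yng and 1887, 2257 and 2502 in WT. No array of yng reached the lowest WT array at either age. The yng embryos changed by -1.99 ± 0.23, WT changed by 0.46 ± 0.23 (adjusted p = 0.223), and the interaction was -2.45 ± 0.33 (adjusted p = 0.000788). The gene s100b, a marker of glia in mammals, read 155, 195 and 213 in yng embryos at 52 hpf, against 76.0, 104 and 81.6 in WT embryos. At 36 hpf s100b read 443, 494 and 531 in yng and 35.3, 68.7 and 57.3 in WT. It was higher in every yng array at both ages, by 0.98 ± 0.18 at 52 hpf and 2.88 ± 0.18 at 36 hpf. The yng level changed with age by -1.32 ± 0.18 and the WT level rose by 0.59 ± 0.18 (adjusted p = 0.0308), with an interaction of -1.90 ± 0.25 (adjusted p = 0.000788).

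Further lower calls were cyp8b1.1, prss1, ch25hl1.1 and cisha. The gene cyp8b1.1 is related to the sterol 12-alpha-hydroxylase of mammalian bile acid synthesis. The called probe set of cyp8b1.1 read 2.49, 2.91 and 0 in yng embryos at 52 hpf, against 32.8, 31.1 and 30.4 in WT embryos. At 36 hpf it read 0, 3.52 and 0 in yng and 2.63, 0.835 and 4.01 in WT, so that the WT arrays at 52 hpf stood apart from all others. The interaction was -1.31 ± 0.23 (adjusted p = 0.0108). Another probe set of cyp8b1.1 gave -0.17 ± 0.18 (adjusted p = 1), with 116, 126 and 121 in yng and 121, 124 and 149 in WT embryos at 52 hpf. The probe sets of cyp8b1.1 thus disagree. The trypsin gene prss1, a product of the exocrine pancreas, read 55.5, 40.5 and 45.0 in yng embryos at 52 hpf, against 119, 139 and 115 in WT embryos. At 36 hpf prss1 read 53.5, 59.8 and 50.6 in yng and 59.8, 60.8 and 56.3 in WT. Here too only WT at 52 hpf was set apart, and the interaction was -1.07 ± 0.14 (adjusted p = 0.000765). In dissected retinas the same probe set read 70.8 to 109, above all embryo arrays but those of WT at 52 hpf. Its signal is thus not specific to pancreas.

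The gene ch25hl1.1 encodes a relative of cholesterol 25-hydroxylase. At 52 hpf ch25hl1.1 read 179, 178 and 179 in yng embryos, against 868, 599.6 and 765 in WT embryos. At 36 hpf ch25hl1.1 read 289, 270.3 and 284 in yng and 468, 457 and 447 in WT. It changed with age in yng by -0.61 ± 0.17 (adjusted p = 0.0296) and in WT by 0.67 ± 0.17 (adjusted p = 0.0119), and no yng array reached a WT array at either age. The interaction of ch25hl1.1 was -1.28 ± 0.25 (adjusted p = 0.0274). The gene cisha encodes an SH2 protein that restrains cytokine signalling through STAT5. At 52 hpf cisha read 155, 144 and 141 in yng embryos, against 325, 379 and 357 in WT embryos. At 36 hpf cisha read 165, 164 and 129 in yng and 168, 180.0 and 167 in WT. WT at 52 hpf alone was high, and the change with time was -0.05 ± 0.11 (adjusted p = 0.892) in yng and 0.98 ± 0.11 in WT. The interaction of cisha was -1.02 ± 0.16 (adjusted p = 0.00377).

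The one named gene among the higher calls was mybl1, a transcription factor of the MYB family that in mammals acts in germ cells. At 52 hpf mybl1 read 1118, 977 and 1141 in yng embryos, against 347, 383 and 293 in WT embryos. At 36 hpf mybl1 read 1120.1, 995 and 951 in yng and 655, 628 and 559 in WT. The yng arrays ran from 951 to 1141 over both ages and lay above WT without overlap, while WT changed with age by -0.82 ± 0.11 and yng changed by 0.08 ± 0.11 (adjusted p = 0.786). The interaction of mybl1 was 0.90 ± 0.15 (adjusted p = 0.00821).

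Of the 30 calls, 14 had a gene name, 2 had the name of a clone and 14 had no symbol. The clone names and the probe sets given here were picked after their values were seen. The largest difference of all calls was that of si:ch211-255g12.6, a long non-coding RNA in the RefSeq annotation. At 52 hpf si:ch211-255g12.6 read 134, 85.2 and 62.5 in yng embryos, against 1129, 1086 and 1348 in WT embryos. At 36 hpf it read 6.89, 3.40 and 2.63 in yng and 5.22, 15 and 20.1 in WT. It rose with age in both genotypes, by 2.39 ± 0.30 in yng and 5.38 ± 0.30 in WT, and the interaction was -2.99 ± 0.42 (adjusted p = 0.0013). The clone gene zgc:172323 read 7.36, 7.36 and 3.43 in yng and 64.3, 71.4 and 43.9 in WT embryos at 52 hpf. At 36 hpf no array of zgc:172323 was above 1.08. Its interaction was -1.78 ± 0.35 (adjusted p = 0.0277). It was called in 1 of the 12 fits that each left out 1 array, and was not called on the intensities as deposited, with a log offset of 64 or without moderation.

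The 9 lower calls with no symbol ranged from -2.39 to -0.84, and the 5 higher ones from 0.74 to 1.48. The lower one with the largest difference read 4.61, 2.56 and 2.33 in yng embryos at 52 hpf, against 124, 67.7 and 134 in WT embryos. At 36 hpf this probe set read 0, 10.6 and 0 in yng and 13.3, 5.29 and 2.87 in WT, and its interaction was -2.39 ± 0.40 (adjusted p = 0.00889). The lowest adjusted p of all belonged to another probe set with no symbol, at 9.48e-06 with a difference of -2.14 ± 0.20. It read 47.7, 32.4 and 39.0 in yng and 294, 229 and 224 in WT embryos at 52 hpf, and no more than 6.36 in any array at 36 hpf. For both of these probe sets every WT array at 52 hpf exceeded every other embryo array. On the higher side, the probe set with the largest difference read 214, 399 and 405 in yng and 159, 145 and 148 in WT embryos at 52 hpf, and 118, 128 and 112 in yng and 157, 139.6 and 213 in WT embryos at 36 hpf. Here yng was above WT at the later age and below it at the earlier one, without overlap, and the interaction was 1.48 ± 0.30 (adjusted p = 0.0357). In 4 of the 30 called probe sets at least 1 embryo array was listed at 0, namely those of arl3l1, zgc:172323, cyp8b1.1 and the lower one with no symbol and the largest difference. With a log offset of 1 the difference was -3.76 for arl3l1 and -2.80 for cyp8b1.1, and neither was called.

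**Figure D2:**
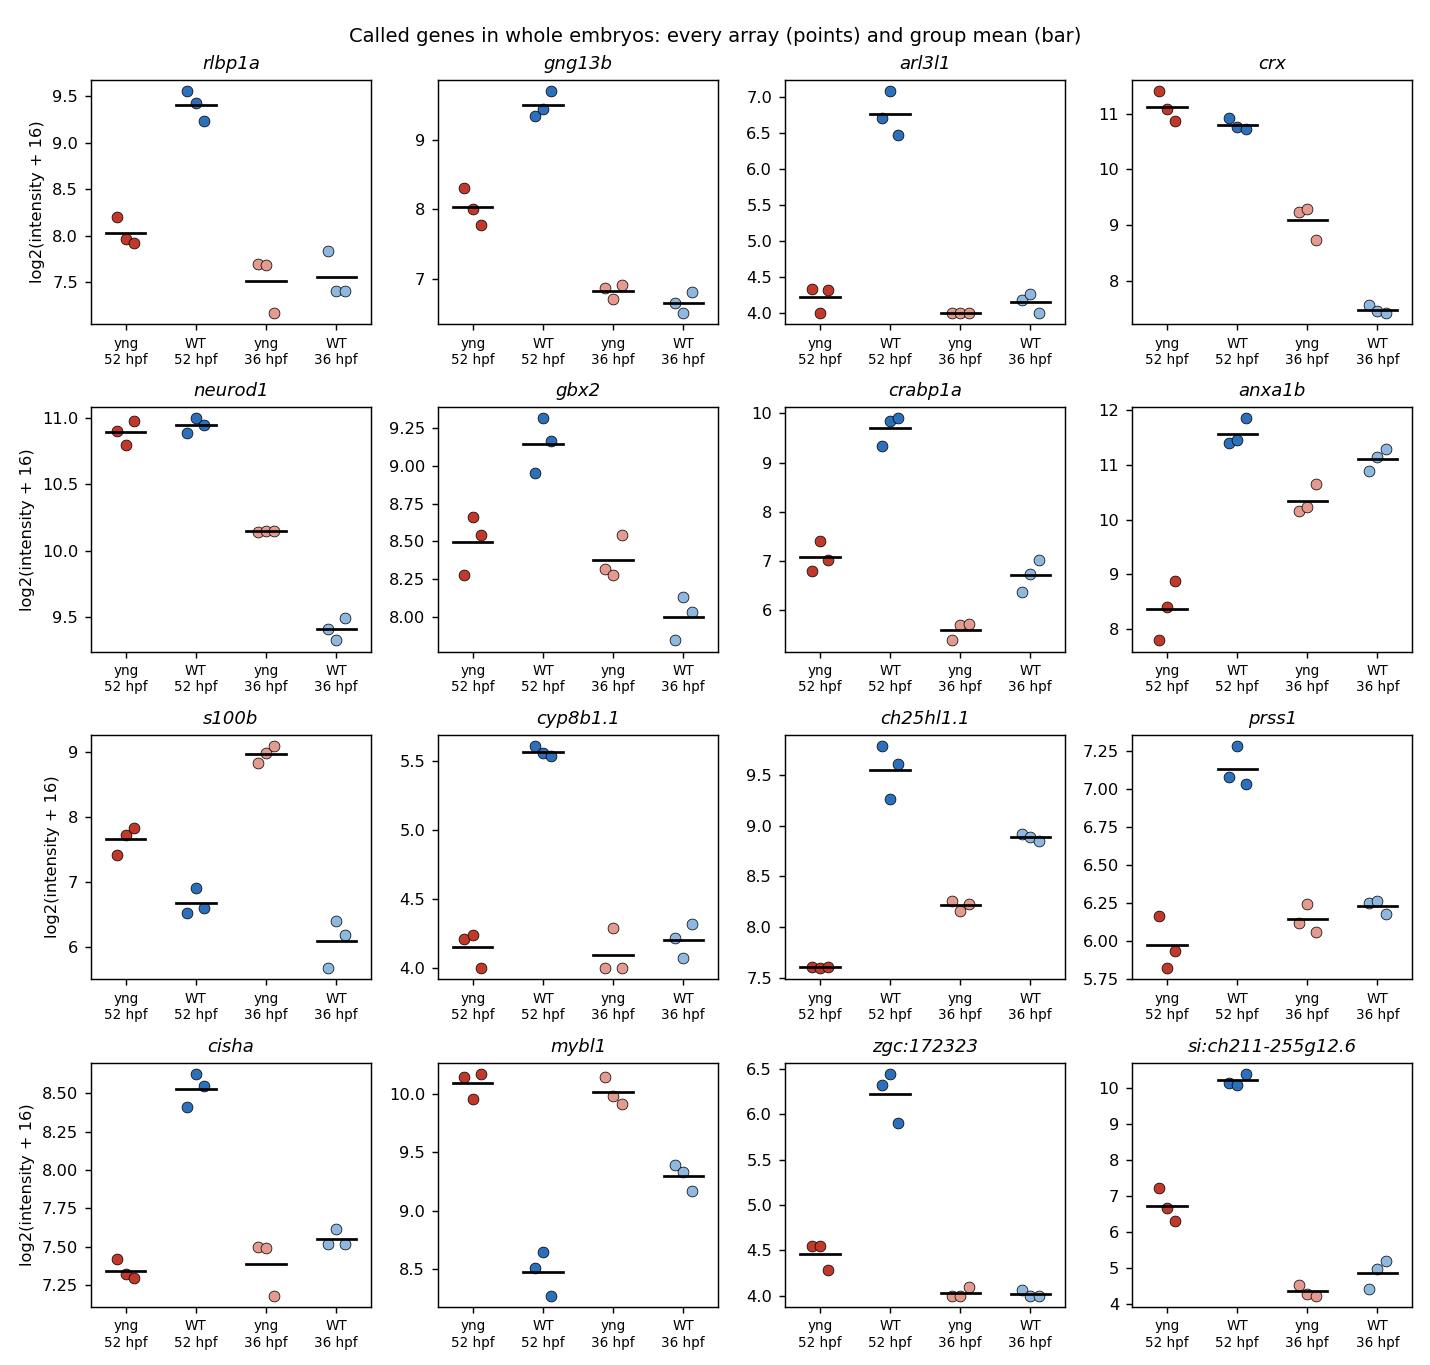
Each panel shows a called gene in the 12 embryo arrays, with log2(intensity + 16) on the y axis, points for arrays and bars for the means of 3 arrays per group. WT at 52 hpf is the highest group for rlbp1a, gng13b, arl3l1, gbx2, crabp1a and cisha, yng leads at 36 hpf for crx, neurod1 and s100b, and mybl1 is low in WT at 52 hpf.

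Lists of genes of tissues and processes were set beside these calls. The lists were chosen with earlier results of these data known, so their shares are no independent support. Over all probe sets 0.194% were called and the median interaction was 0.0035. The photoreceptor and visual cycle list had 45 genes measured by 55 probe sets, of which 3 were called lower (rlbp1a, crx and neurod1) and none higher. At an unadjusted p under 0.05, 12 of the 55 stood apart (21.8%, beside 4.54% of all probe sets), 11 of them lower, and the median of the list was -0.064. The glia and myelin list of 22 probe sets had 2 lower calls, s100b and rlbp1a, with 18.2% at an unadjusted p under 0.05 and a median of -0.11. The neuronal and synaptic list had gng13b as its lower call among 91 probe sets, with 3.3% at an unadjusted p under 0.05. Of the 91, 64 were below 0, beside 49.1% of all probe sets, and the median was -0.088. In the list of neural progenitors and the Notch pathway neurod1 was the lower call among 90 probe sets (7.78% at an unadjusted p under 0.05, median -0.028). The list of liver, gut, pancreas and yolk had 1 lower call in 77, prss1 (9.09%, median -0.025), and the skin and keratin list 1 in 43, anxa1b (6.98%, median -0.056). The genes rlbp1a and neurod1 each stand on more than 1 of these lists.

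No member was called in the lists of muscle, heart, blood, leukocytes, vessels, cartilage and bone, hatching gland, pigment cells, lens, cell cycle, chromatin, apoptosis with p53, stress and immediate early genes, glucocorticoid and circadian genes, ionocytes and kidney, ribosomal proteins, mitochondrial respiration or the hox clusters. With 0.194% of all probe sets called, lists of this size would mostly hold no call, so the absence is no result about these tissues and processes. At an unadjusted p under 0.05 the share of members apart was 15.3% for glucocorticoid and circadian genes, 14.3% for lens, 13.3% for pigment cells, 10.8% for stress and immediate early genes, 9.52% for leukocytes and 8.33% for vessels, beside 4.54% of all probe sets. In the other lists it was 0 to 5.13%. The lens, pigment, leukocyte and vessel shares rest on 1 or 2 probe sets each. The cell cycle and DNA replication list, with 130 probe sets, had 38 below 0 (29.2%) and a median of 0.10. Its member with the largest difference was e2f8, a repressor of the E2F family, at 0.60 ± 0.22 (adjusted p = 0.832). The share below 0 was smaller still in the lists of blood (22.7%), ribosomal proteins (26.7%) and leukocytes (28.6%). The highest medians were those of the leukocyte list (0.18, 21 probe sets), with the metalloproteinase mmp9 at 0.96 ± 0.36 (adjusted p = 0.859), and the blood and globin list (0.18, 22 probe sets), with hbaa1 at 0.97 ± 0.64 (adjusted p = 1). For muscle the median was 0.021 with ttn.2, a titin gene, at -0.39 ± 0.21 (adjusted p = 1). Its other 3 probe sets gave 0.11, 0.03 and 0.03, so that the sign of ttn.2 differed between probe sets. The named one read 2.15 to 13.3 in embryos, near the bottom of the scale. The one at 0.11 read 4878 to 8826 and one of those at 0.03 read 3014 to 5286. Ribosomal protein genes had a median of 0.027 with rpl21 at 0.12 ± 0.38 (adjusted p = 1), and mitochondrial genes one of -0.0063 with atp5mea of ATP synthase at -0.61 ± 0.37 (adjusted p = 1). The other probe set of rpl21 gave 0.02 (adjusted p = 1). It read 5135 to 7786 in embryos, against 10.0 to 27.5 for the named one, which was dim.

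Some members of these lists had large differences without passing. The lens crystallin gene crygm2c had the largest positive difference of all 15502 probe sets, at 1.81 ± 0.64 (adjusted p = 0.773). It read 1277, 1038 and 1150.3 in yng embryos at 52 hpf, against 2034, 1624 and 2030.3 in WT embryos. At 36 hpf crygm2c read 155, 131 and 99.0 in yng and 813, 726 and 864 in WT. The yng arrays were lower at both ages without overlap, and closer to WT at 52 hpf. In the 12 retina arrays, which share the estimate of spread, crygm2c ran from 131 in a yng array at 52 hpf to 2.93 in another of the same group. On these low and uneven readings its retina interaction was 2.95 ± 0.64 (adjusted p = 0.00785). With the 4 embryo groups alone in the fit the adjusted p of its embryo interaction was 0.00651. In the fits of all groups it was 0.39 with the replicate block and 0.524 with the day block. The collagen gene col10a1a of the cartilage and bone list read 607, 385 and 266 in yng embryos at 52 hpf, against 1076, 1118 and 1097 in WT embryos. It was listed at 0 in all 3 yng arrays and in 2 of the 3 WT arrays at 36 hpf. The interaction of col10a1a was -1.30 ± 0.38 (adjusted p = 0.433), and the adjusted p was 0.00898 with a log offset of 64. It was 0.175 with the replicate block and 0.41 with the day block. The hindbrain transcription factor gene egr2b was at -1.36 ± 0.44 (adjusted p = 0.628), with 119.5, 113 and 82.2 in yng and 91.0, 99.4 and 68.3 in WT embryos at 52 hpf. At 36 hpf egr2b read 247, 234 and 318 in yng and 60.6, 115 and 61.6 in WT, so that its arrays were apart at the earlier age alone.

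Other lists are given by the member with the largest difference, none of which passed. These were the clock gene per2 at 0.95 ± 0.34 (adjusted p = 0.794), the flow-responsive factor klf2a of the heart list at 0.50 ± 0.27 (adjusted p = 1), and the vein receptor ephb4a at -0.51 ± 0.30 (adjusted p = 1). Likewise sox10 of the neural crest was at -0.50 ± 0.23 (adjusted p = 1) for pigment cells, and xbp1, a factor of secretory cells, at -0.14 ± 0.19 (adjusted p = 1) for the hatching gland. The SWI/SNF subunit gene smarcc1a was at 0.55 ± 0.32 (adjusted p = 1) for chromatin, the caspase activator apaf1 at -0.60 ± 0.25 (adjusted p = 0.972) for apoptosis and hoxa9b at -0.68 ± 0.36 (adjusted p = 1) for the hox clusters. The carbonic anhydrase gene ca2 was at -0.51 ± 0.14 (adjusted p = 0.374) for ionocytes, with an adjusted p of 0.0336 with the replicate block. Another probe set of ca2 gave -0.17, with an adjusted p of 0.901 with the block, so that only 1 of its 2 probe sets was called there. Other probe sets also gave smaller values for per2 (-0.07, of opposite sign) and apaf1 (-0.08), both with an adjusted p of 1.

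**Figure D3:**
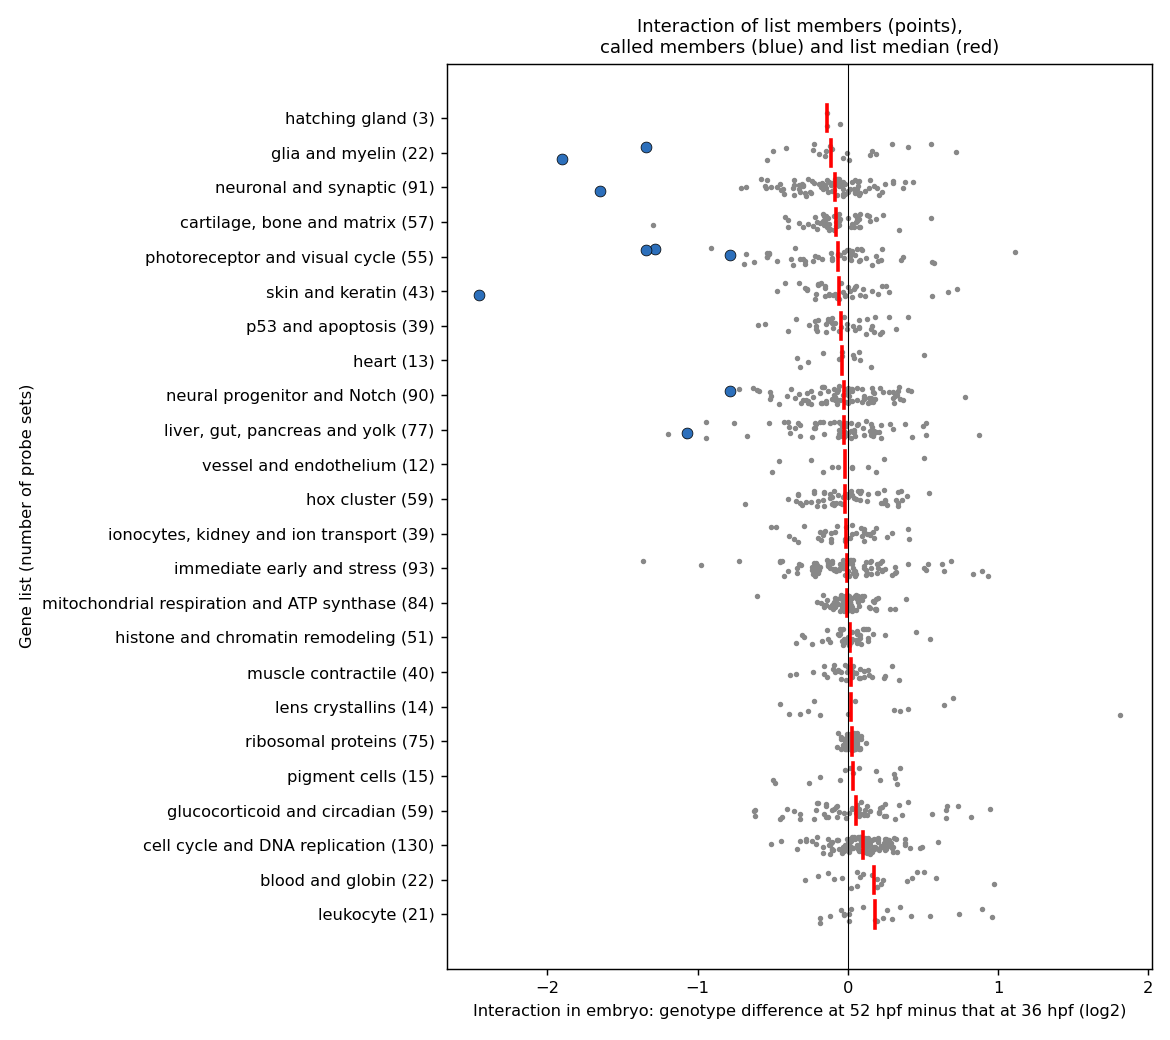
Each grey or blue point is a probe set of a list, its interaction in embryos (log2) is on the x axis, and the lists run down the page with the number of probe sets in brackets. Called members are blue and lie below 0 in the photoreceptor, glia, neuronal, progenitor, skin and liver lists, while all list medians (red) lie between -0.14 and 0.18.

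The replicate block added 36 probe sets, 12 lower and 24 higher, with 7 named genes among the lower and 16 among the higher ones. They are named here because the blocked model called them, and none passed without the block. Among the lower ones, pax6a, six3a and bhlhe22 encode transcription factors of the eye and nervous system. At 52 hpf pax6a read 1283, 1257 and 1285 in yng embryos, against 1739, 1714 and 1800.3 in WT embryos. At 36 hpf pax6a read 1634, 1461 and 1646 in yng and 1400.0, 1419 and 1473 in WT. The genotypes were apart at the later age and overlapped at the earlier one. The interaction was -0.59 for pax6a (adjusted p = 0.0121 with the block and 0.149 without), -0.52 for six3a (0.0248 and 0.153) and -0.65 for bhlhe22 (0.00827 and 0.0755). The liver fatty acid binding protein gene fabp10a was at -1.2 (0.0473 and 0.0795) and the urate oxidase gene uox at -1.11 (0.0464 and 0.102). Both were dim in embryos, fabp10a at 13.1 to 54.4 and uox at 14.9 to 62.8. In retinas fabp10a read 40.1 to 92.3 and uox 31.0 to 71.1, so neither signal is specific to liver. The remaining named lower genes were ca2 and the RNA-binding protein gene pcbp4, at -0.70 (0.0108 and 0.467).

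On the higher side of the blocked calls, both probe sets of the chaperone gene hsp90aa1.2 were called. One of them read 1387, 1887 and 1740.1 in yng embryos at 52 hpf, against 1299.9, 1454 and 1482 in WT embryos. At 36 hpf it read 909, 925 and 857 in yng and 1194, 1433 and 1489 in WT, so that yng was lower at the earlier age and overlapped WT at the later one. Its interaction was 0.83 (adjusted p = 0.0104 with the block and 0.156 without), and the other gave 0.93 (0.0121 and 1). Probes for hsp90aa1.2 may also bind transcripts of its close paralogue, so its values are uncertain. The interferon regulatory factor gene irf1b was at 0.94 (0.0237 and 0.0751). The clock-output factor gene tefa was at 0.82 (0.0216 and 0.133), and the nuclear receptor gene nr2e1 of neural progenitors at 0.53 (0.0354 and 0.255). Another probe set of tefa gave 0.65 (adjusted p = 0.966 without the block) and was not called with the block. Others were the metalloproteinase inhibitor gene timp2b at 0.73 (0.02 and 0.0751), the DNA glycosylase gene neil1 at 0.95 (0.0279 and 0.335) and the lipoprotein lipase gene lpla at 0.68 (0.0214 and 0.75).

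Within each of the 3 replicate numbers taken alone, all 24 lower calls were below 0 and all 6 higher calls were above 0. For the largest, si:ch211-255g12.6, the values were -3.05, -2.77 and -3.16, and for anxa1b they were -2.89, -2.13 and -2.34. For neurod1, the smallest named one, they were -0.71, -1.02 and -0.62. Since the calls were made on these arrays, this describes their spread and is no test. With the hybridization day as a block 24 of the 30 were called, 21 lower and 3 higher. That fit in effect drops WT 52 hpf replicate 3, the only array of its day. In all 12 fits that each left out 1 array, 13 lower and 3 higher calls passed. Among named genes these were anxa1b, arl3l1, s100b, rlbp1a, cyp8b1.1, prss1, cisha and mybl1, and the fewest calls of all were 18, without yng 52 hpf replicate 3. The other named genes passed in part of those fits, with gng13b in 7 of 12, crx in 6, neurod1 in 9, gbx2 in 3, crabp1a in 4, ch25hl1.1 in 1 and the clone gene zgc:172323 in 1.

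**Figure D4:**
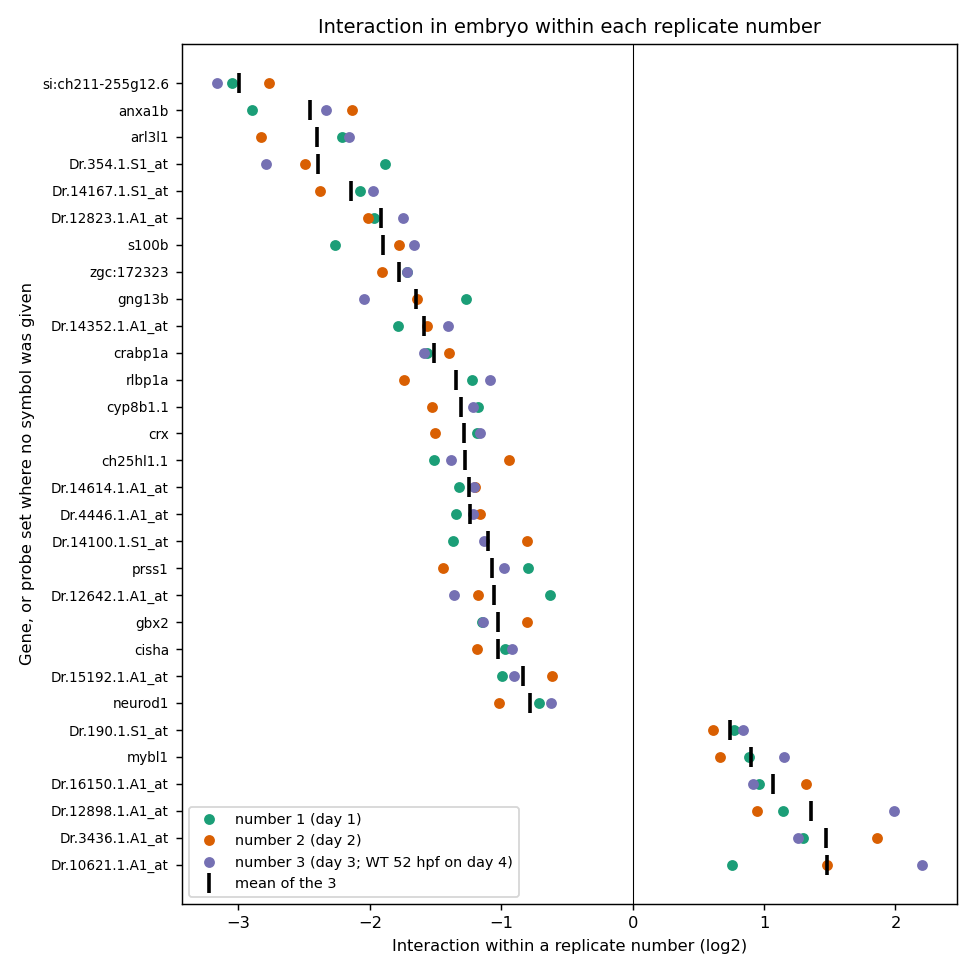
For each of the 30 called probe sets, coloured points give the embryo interaction (log2, x axis) computed within replicate number 1, 2 or 3 and black bars give their mean. All points of the 24 lower calls lie below 0 and all points of the 6 higher calls lie above 0.

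The retina arrays of the same design gave a measure of the same interaction in other samples. The gapdh ratio shifted there too. It averaged 3.058 in yng and 2.676 in WT retinas at 52 hpf, and 2.887 in yng and 3.095 in WT retinas at 36 hpf. Its part in the retina results was not tested. In retinas 637 probe sets were called (4.11%), 443 lower (2.86%) and 194 higher (1.25%), and 1406 with the replicate block. Of the 24 probe sets lower in embryos, 17 had the same sign in retinas, and 61% of all probe sets did. Called in the same direction in retinas were 7 of the 24, namely rlbp1a, gng13b, arl3l1, gbx2, zgc:172323 and 2 probe sets with no symbol, and none was called in the opposite one. In retinas rlbp1a read 517, 650.2 and 517 in yng, against 4230.4, 3963 and 4123 in WT at 52 hpf. At 36 hpf retinas read 757, 813 and 667 in yng and 772, 718 and 811 in WT for rlbp1a. The retina interaction of rlbp1a was -2.80 ± 0.21 (adjusted p = 4.07e-08), where only the later age set the genotypes apart. For gng13b it was -1.43 ± 0.30 (adjusted p = 0.00592), for arl3l1 -1.38 ± 0.29 (adjusted p = 0.00601) and for gbx2 -1.08 ± 0.20 (adjusted p = 0.00195). In retinas at 52 hpf gbx2 read 523, 602 and 578 in yng, against 1532, 1675 and 1845 in WT, without overlap. Of the 6 higher probe sets 2 had the same sign in retinas and 1 was called, mybl1, at 1.11 ± 0.15 (adjusted p = 5.95e-05).

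Whether the embryo and retina interactions differ was tested with the term of genotype, time and tissue, in which the embryo arrays that made the calls enter again. It was called for 135 of the 15502 probe sets (0.871%), and for 292 with the replicate block. Of the 24 lower calls 11 passed and of the 6 higher calls 2. The difference, embryo minus retina, was -3.94 ± 0.59 (adjusted p = 0.00113) for si:ch211-255g12.6 and -2.70 ± 0.46 (adjusted p = 0.00455) for anxa1b. It was -1.83 ± 0.36 (adjusted p = 0.0117) for s100b, -1.65 ± 0.35 (adjusted p = 0.0208) for ch25hl1.1 and -1.54 ± 0.32 (adjusted p = 0.0188) for cyp8b1.1. For prss1 it was -1.2 ± 0.20 (adjusted p = 0.00315) and for cisha -1.0 ± 0.22 (adjusted p = 0.0289). In retinas ch25hl1.1 read 2.9 to 20 and the called probe set of cyp8b1.1 3.2 to 18.4 in all groups, close to the bottom of the scale. For both, the difference between tissues says little beyond the embryo value. The lncRNA si:ch211-255g12.6 was also dim there, at 4.1 to 50.6. In these 7 the retina interaction was not called, as with anxa1b, where it was 0.25 ± 0.33 (adjusted p = 0.871). The gene rlbp1a went the other way, with a deeper difference in retina than in embryo (1.45 ± 0.30 (adjusted p = 0.0159)). For crx the retina interaction was -0.15 ± 0.23 (adjusted p = 0.898) and its difference from embryos -1.14 ± 0.33 (adjusted p = 0.161). In retinas crx read 6681, 6494 and 6616 in yng and 6616, 6364 and 5433 in WT at 52 hpf, and 3384, 2624 and 2541 in yng and 2269.7, 2943 and 1979.7 in WT at 36 hpf, with overlap at both ages. The difference between tissues did not pass for neurod1 (-0.40 ± 0.20 (adjusted p = 0.786)), crabp1a (-0.79 ± 0.43 (adjusted p = 0.879)), gng13b (-0.22 ± 0.42 (adjusted p = 1)) or gbx2 (0.05 ± 0.28 (adjusted p = 1)).

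**Figure D5:**
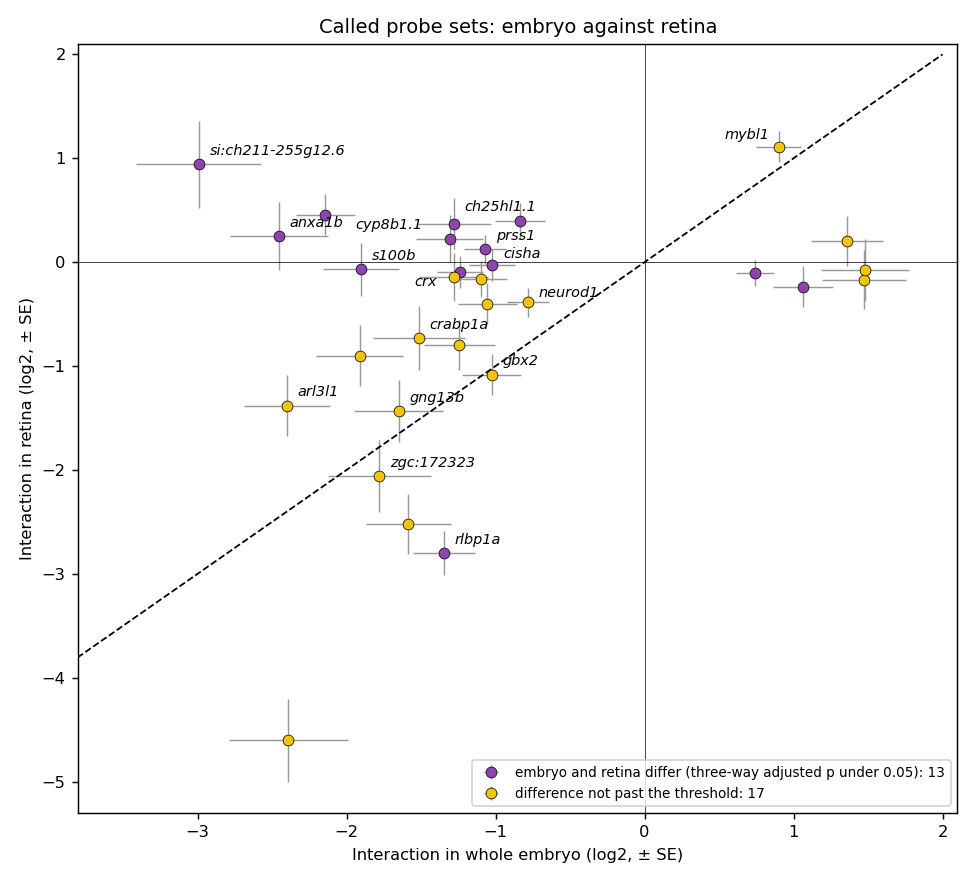
Points are the 30 probe sets called in embryos, with the embryo interaction on the x axis and the retina interaction on the y axis (log2 ± SE, 3 arrays per group), and the dashed line marks equal values. The 13 purple points passed the test of a difference between tissues, among them anxa1b near 0 and rlbp1a below the line, while gng13b, gbx2 and mybl1 lie near the line.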

How the data were processed

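The deposited table gives 1 intensity per probe set and array, from 0 to 20110 on a linear scale. The authors' probe summary and scaling steps were not given in the sources used here. Per the labels, 33 ng of RNA from each pool was labelled by a two-cycle protocol. Text records of the arrays, with no expression values, were used for the order of hybridization days and the fluidics station. Of 15617 probe sets 115 controls were removed. Intensities were quantile normalized over all 24 arrays, an offset of 16 was added and log2 was taken. A model with 1 mean for each of 8 groups was fitted in R 4.3.3 by limma 3.58.1 (16 residual and 4.25 prior degrees of freedom), and p-values are moderated and two-sided. The labels call the pools biological replicates, and p-values cover the spread of those pools. Tables and plots were made with Python 3.11.15, pandas 2.3.3 and matplotlib 3.10.9.

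The platform annotation named 10795 probe sets by 1 symbol, while 135 had several and 4572 had none. RefSeq gene IDs of GRCz12tu were used to update symbols, which changed 1. After group means were removed, embryo arrays of the same replicate number correlated with a median of 0.426 (lowest 0.302), against -0.206 (highest -0.0507) for other numbers, and each of the 12 matched its own number best. The number follows the hybridization day, so it was taken to pair the arrays, and the model with it as a block was run beside the one without.

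Genes were named by rule: smarca4a, up to 15 named genes each way among the calls with 1 symbol that is no clone name, up to 4 called members of each list, and the member with the largest difference where a list had none called. Members and lists were chosen with earlier results of these data known. Alternatives were the intensities as deposited, normalization or fit on embryo arrays alone, log offsets of 1 and 64, a mean intensity of at least 100, blocks for number or day, no moderation and leaving out each array. On simulated data with 200 changed probe sets of 15502, the embryo interaction recovered 14.9%, 62.7% and 86.4% of differences of 0.5, 1 and 2, with 11 false calls. The 11 false calls are to be set against the calls made, not against all 15502 probe sets. The simulated noise was independent between arrays and lacked the correlation of arrays with the same number. More changed probe sets than the 30 called here also loosen the adjusted threshold, so these shares may not hold for the real arrays.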

Additional observations from a re-analysis of the deposited data

Results flagged for a closer look

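For the named calls, the 2 clone genes and 2 probe sets with no symbol, the genotype difference at 52 hpf was tested against that at 36 hpf and differed from it. They were picked from the probe sets that passed this test, so it is no separate support for them. The interaction was -2.99 for si:ch211-255g12.6, -2.45 for anxa1b, -2.40 for arl3l1, -2.39 and -2.14 for the probe sets with no symbol and -1.90 for s100b. It was -1.78 for zgc:172323, -1.65 for gng13b, -1.51 for crabp1a, -1.35 for rlbp1a and -1.31 for cyp8b1.1. It was -1.28 for crx and ch25hl1.1, -1.07 for prss1, -1.03 for gbx2, -1.02 for cisha and -0.78 for neurod1. For mybl1 it was 0.90. The sign of these values was the same within each replicate number, which on the same arrays is no test. For cyp8b1.1, 1 probe set gave -0.17 and did not pass.

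In a test of the embryo against the retina interaction, the tissues differed for 9 of these probe sets. The difference, embryo minus retina, was -3.94 for si:ch211-255g12.6, -2.70 for anxa1b, -2.60 for the probe set with no symbol whose interaction was -2.14, -1.83 for s100b and -1.65 for ch25hl1.1. It was -1.54 for cyp8b1.1, -1.2 for prss1 and -1.0 for cisha. The value for rlbp1a was 1.45. No retina array read above 20 for ch25hl1.1 or above 18.4 for cyp8b1.1, so for these the difference between tissues says little beyond the embryo value. Groups of 3 arrays were too small for a search for single outlying arrays.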

How the results depend on the processing

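The sign of the interaction was the same for all 16 called genes and clones in every alternative that kept their probe sets, but many calls lay close to the threshold. The alternatives reuse the arrays on which the calls were made, so the shared sign is no test. The number of embryo interactions called was 30 as reported, 12 with a log offset of 1, 47 with an offset of 64, 66 with the replicate block and 18 to 30 when 1 array was left out. The lowest were 18 without yng 52 hpf replicate 3 and 19 without yng 52 hpf replicate 2, and fits without an array also test fewer samples. With the offset of 1 calls were lost for arl3l1, gng13b, crabp1a, cyp8b1.1, ch25hl1.1, gbx2 and si:ch211-255g12.6. With both normalization and fit on the 12 embryo arrays alone they were lost for crabp1a, rlbp1a, cyp8b1.1, crx, gbx2, neurod1 and mybl1. With the 4 embryo groups alone in the fit (23 called) they were lost for crabp1a, rlbp1a, crx, gbx2 and mybl1, and without moderation for gng13b, crabp1a, ch25hl1.1, gbx2 and zgc:172323. The replicate block lost none of the 16, and the cause of these shifts was not tested.

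Other counts moved in the same settings. The genotype difference at 52 hpf gave 2116 with the replicate block, 1458 with the day block and 603 to 932 without 1 array (603 without yng 52 hpf replicate 3). That at 36 hpf gave 2247, 2198 and 590 to 909 (590 without WT 36 hpf replicate 2, 593 without replicate 1). The time change in yng gave 2775, 2724 and 787 to 1353 (787 without yng 36 hpf replicate 3, 821 without yng 52 hpf replicate 1), and in WT 3893 with the replicate block. The retina interaction gave 1406 with the replicate block and 1353 with the day block. The term of genotype, time and tissue gave 292, 215 and, with an offset of 1, 72. Values near 0 changed sign when 1 array was left out, with rpl21 at -0.0077 to 0.3110, and smarca4a at -0.1517 to 0.1530 and -0.0223 to 0.0477 over its probe sets. With 3 arrays per group small interactions were detected only in part, with 14.9% of simulated differences of 0.5 and 62.7% of those of 1 recovered.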

Other observations

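Chromosome positions in the RefSeq annotation were known for 16 of the called probe sets. Of these 1, gng13b, was on the chromosome of smarca4a, beside 5.18% of the tested probe sets with a known chromosome.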
